A study of Mus musculus with 22 samples.

Results

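Epithelial cells sorted from the mouse lung by CD326 were compared across birth, with 2 libraries from embryonic day 18.5 (E18.5) and 2 from postnatal day 7 (P7). They were picked by their labels, with earlier results of these data known, and are 4 of 22 libraries. The series profiled endothelial (CD31+), epithelial (CD326+) and immune (CD45+) cells from whole lungs at up to 4 ages. All animals were untreated wild-type C57BL6 mice from timed pregnancies, with no allele or agent in either group. Each library came from its own pool of animals as named in its description, and the labels do not give the number of animals in a pool. The endothelial libraries of the same ages came from the same pools and serve below as the fraction for comparison. Of 24344 genes with a usable name, 12880 reached a value of 1 in at least 2 of the 22 libraries and were tested.

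CD326 is the adhesion molecule encoded by Epcam and is carried by all epithelial cells, so the sort mixes alveolar type 1 cells, which form the gas exchange surface, alveolar type 2 cells, which make surfactant, and the club, ciliated and other cells of the airways. Late in gestation the epithelium of the distal lung stores glycogen, secretes fluid and lives at a low oxygen tension. At birth the fluid is replaced by air, oxygen tension rises, and in the following days the walls between air sacs begin to subdivide. Cells read oxygen through hypoxia-inducible factors (HIF), whose alpha subunits are marked for destruction by oxygen-dependent prolyl hydroxylases. At low oxygen they pair with ARNT and turn on genes for glucose uptake, glycolysis and other responses.

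The marker genes were in place in all 4 libraries. Epcam stood at 49.4 and 43.996 at E18.5 and 35.1 and 37.2 at P7, and Nkx2-1, the transcription factor that specifies lung epithelium, at 307 and 352 at E18.5 and 182 and 275 at P7. For both genes each P7 value lay below both E18.5 values. Neither was called (limma adjusted p = 0.795 and 0.792), in a test whose spread is taken over all 11 groups of the series. Ptprc, which encodes the immune antigen CD45, was at most 0.0824. Pecam1, the endothelial antigen CD31, stood at 2.48 and 3.01 at E18.5 and 5.54 and 5.70 at P7 (adjusted p = 0.355). The 14 endothelial markers summed to 91.5 and 128 at E18.5 and to 307 and 269 at P7. Against the endothelial libraries of the same age, the median marker was at 5.06% and 6.72% at E18.5 and at 9.05% and 7.77% at P7. Of the 17 immune markers other than Lyz2, the summed level was 16.2 and 13.5 at E18.5 and 28.9 and 37.8 at P7, and the median marker was at 0.327% and 0.257% of its level in the P7 immune libraries. The 16 mesenchymal markers summed to 197 and 217 at E18.5 and 282 and 240 at P7. Mesothelial markers went the other way in value, from 102 and 115 to 56.1 and 66.7, and red cell markers were high in P7 replicate 1 (54.4) and between 13.9 and 17.6 in the other libraries. Of 5 tested mesothelial and 8 tested red cell markers 0 were called by limma, with 0 and 0 at an unadjusted p under 0.05.

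Levels are given as deposited: a signal per gene, scaled so that every library sums to 228405, with read depth unknown. "Rescaled" means divided by a size factor from the median ratio to all libraries, which was 1.02 for each E18.5 library, 0.850 for P7 replicate 1 and 1.01 for P7 replicate 2. Fold changes are differences in log2(value + 1), P7 minus E18.5, with the standard error from limma. That scale understates the change of genes with low values. A gene is called when its adjusted p is under 0.05 over all 12880 genes, and "rose" and "fell" are used of called genes. For gene lists, a count of 0 calls is followed in brackets by the count at an unadjusted p under 0.05 in that direction. The 2 E18.5 libraries correlated with Pearson's r = 0.985 across genes and the 2 P7 libraries with r = 0.965, and 169 genes differed over 2-fold between the former against 416 between the latter. In bulk samples, fewer cells of a type and less RNA per cell cannot be told apart. The P7 libraries carry sequencing run names and the E18.5 libraries do not, so run and age cannot be told apart either.

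Between E18.5 and P7, 288 genes rose and 322 fell, which is 2.24% and 2.5% of the genes tested. Each list count below is to be read beside these shares. The groups did not overlap for any of these 610 genes, as for 6695 of all 12880. After rescaling, 496 rose (3.85%) and 290 fell (2.25%), and the calls in both scalings were 288 rises and 271 falls. The median change of all genes was -0.05, and 0.02 after rescaling. At an unadjusted p under 0.05 there were 2431 genes. Left out in turn, single libraries gave between 197 calls (without E18.5 replicate 1) and 396 (without P7 replicate 1). A change of at least 1 on the log2 scale was reached by 215 of the called rises and 166 of the called falls. Of the 130 called genes named in the text, 46 kept their call in all 4 fits that each left out 1 epithelial library: Aldh1a1, Bpifb1, Ccnd2, Cd74, Cdhr3, Chia1, Cirbp, Cldn10, Cldn23, Cldn8, Cxcl17, Cyp2b10, Cyp4b1, Dlk1, Egln3, Epas1, Frem2, Fstl1, Gabrp, Gsta3, H2-Aa, H2-Ab1, H2-Eb1, Hif3a, Ifit2, Ifit3, Igf2, Igf2bp1, Igfbp2, Ldha, Ly6a, Meg3, Mirg, Ndrg1, Nedd4l, Pex26, Pgam1, Ppp1r3b, Rian, Rtl1, Scgb1a1, Scnn1b, Slc2a1, Tmem100, Tmem213 and Tpi1. The other 84 lost it in at least 1 of these fits.

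**Figure D1:**
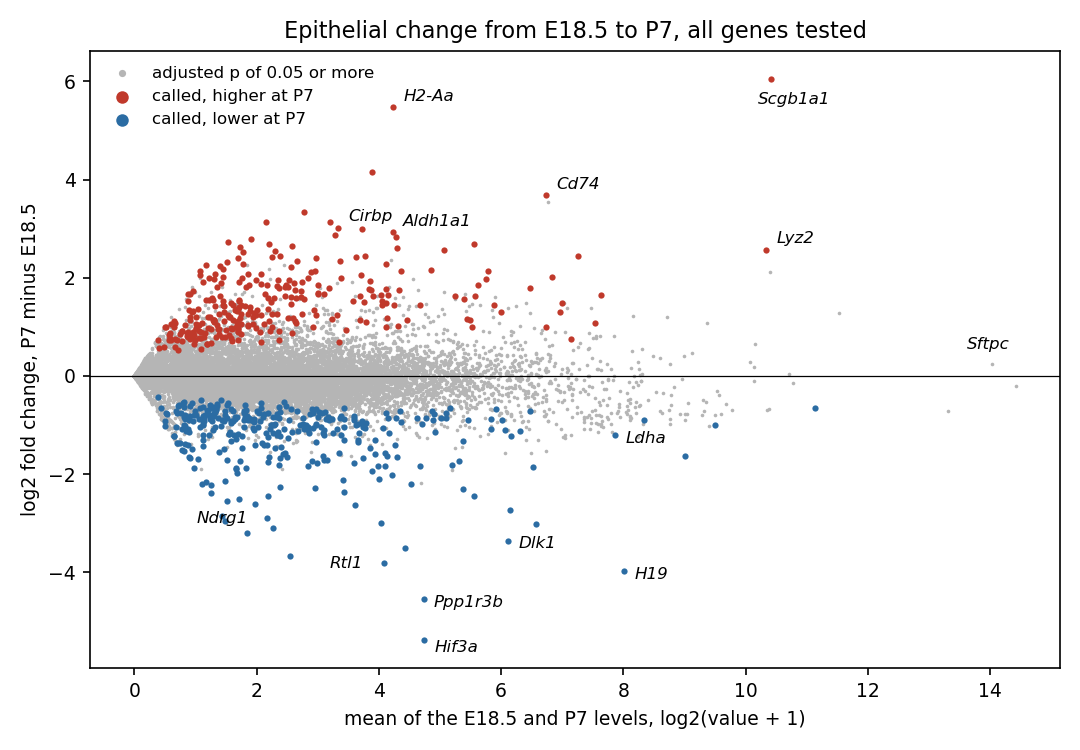
Log2 fold change from E18.5 to P7 (P7 minus E18.5, 2 libraries each) against the mean level on the log2(value + 1) scale for the 12880 genes tested. The 288 called rises are led by Scgb1a1 and H2-Aa and the 322 called falls by Hif3a and Ppp1r3b, while Sftpc lies near 0 at the right edge.

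The largest fall was that of Hif3a, the HIF alpha subunit best known for variants that restrain the other subunits. Its level was 159 and 173 at E18.5 and 1.87 and 4.65 at P7, 50.99-fold lower by the ratio of means (log2 fold change -5.38 ± 0.32, adjusted p = 2.97e-07; rescaled -5.28). It was already 139 and 138 at E16.5 and stood at 0.894 and 0.402 at P28. The E18.5 levels thus lay above those of all other epithelial libraries. The endothelial libraries of the same pools held 123 and 96.3 at E18.5 and 0.687 and 1.75 at P7.

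Hif1a and Arnt were not called, and Epas1 was called higher. Hif1a stood at 9.37 and 10.02 at E18.5 and 6.93 and 10.7 at P7 (adjusted p = 0.781), and the shared partner Arnt at 8.69 and 8.88 at E18.5 and 6.25 and 9.69 at P7 (adjusted p = 0.824). Epas1, which encodes HIF-2 alpha, rose from 6.60 and 6.80 to 26.9 and 48.7 (log2 fold change 2.27 ± 0.38, adjusted p = 0.00277). Epas1 is abundant in endothelium, where it read 34.7 and 21.6 at E18.5 and 179 and 309 at P7, and the part of the endothelial transcripts in its epithelial rise was not tested. Egln3, a prolyl hydroxylase that is itself a HIF target, fell from 10.1 and 9.57 to 0.164 and 0.181 (log2 fold change -3.21 ± 0.34, adjusted p = 5.41e-05). Of the 9 tested members of this list, which was drawn up after values had been seen, 1 rose and 2 fell.

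Genes of the hypoxic response and of glycolysis fell together. Of 30 tested members, 15 fell and 0 (0) rose, with the same counts after rescaling, against 2.5% of all genes that fell. The median over the 30 was -1.01, against -0.05 for all genes. Without E18.5 replicate 1, without E18.5 replicate 2 or without P7 replicate 1, 8, 9 and 9 members were called, and without P7 replicate 2, 13. Called in each of these fits were 6: Egln3, Ldha, Ndrg1, Pgam1, Slc2a1 and Tpi1.

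Called members of the list included genes of glucose uptake and glycolysis, whereas Aldoa, Pkm and Pfkfb3 were among the members not called. The groups of the called members did not overlap, as for all 610 called genes and 6695 of all 12880. Slc2a1, the glucose transporter GLUT1, fell from 22.3 and 20.2 to 4.35 and 6.86 (log2 fold change -1.77 ± 0.22, adjusted p = 2.93e-04). Hk2, the hexokinase that traps glucose in the cell, fell from 6.60 and 7.37 to 0.993 and 2.25, and Pfkl, a phosphofructokinase subunit, from 5.82 and 6.49 to 2.35 and 2.06. Further down the pathway, Tpi1 (triose phosphate isomerase) fell from 74.1 and 68.2 to 22.4 and 19.3 and Pgk1 (phosphoglycerate kinase) from 31.4 and 29.3 to 12.1 and 9.52. These are falls of between -1.16 and -1.77 on the log2 scale. Pgam1 (phosphoglycerate mutase) went from 164 and 179 to 58.0 and 37.3 (log2 fold change -1.86 ± 0.23, adjusted p = 2.59e-04). For Eno1 (enolase) the values were 14.2 and 14.5 against 2.94 and 4.57 (adjusted p = 0.00881). Ldha, which makes lactate from pyruvate, fell from 369 and 331 to 141 and 164 (log2 fold change -1.19 ± 0.20, adjusted p = 0.00258), and Pdk1, which keeps pyruvate out of mitochondria, from 12.7 and 10.4 to 3.43 and 6.08 (adjusted p = 0.00976). Pgam1, Pgk1, Tpi1, Eno1 and Ldha have many processed pseudogene copies in the mouse genome, and the handling of reads shared with them is not stated in the labels.

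The called members outside glycolysis fell as well. Ndrg1, a stress-response gene of epithelia, went from 11.9 and 10.6 to 0.535 and 0.752 (log2 fold change -2.90 ± 0.17, adjusted p = 2.97e-07). Bnip3, a mitophagy receptor, went from 16.3 and 16.98 to 6.73 and 9.39 (adjusted p = 0.00439), and P4ha1, a collagen prolyl hydroxylase, from 6.88 and 6.30 to 2.32 and 2.58 (adjusted p = 0.00405). For the histone demethylase Kdm3a the values were 19.2 and 16.4 against 5.86 and 11.2, and for the carbonic anhydrase Car9 1.02 and 2.38 against 0.317 and 0.150 (adjusted p = 0.0312 and 0.0410). Vegfa, the vascular growth factor that is also a HIF target, was not called: it stood at 138 and 157 at E18.5 and 143 and 111.1 at P7 (log2 fold change -0.22 ± 0.31, adjusted p = 0.789), and its groups overlapped.

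The endothelial libraries of the same pools also had lower values of these genes at P7. Their log2 changes were -5.67 for Hif3a, -2.97 for Egln3, -2.07 for Slc2a1, -1.73 for Tpi1 and -0.77 for Ldha. Among the 30 members, the test of the difference between the fractions called 1, Ndrg1, which fell further in epithelium (difference -1.996 ± 0.24, adjusted p = 0.00135). The endothelial libraries of E18.5 carried epithelial transcripts: the median epithelial identity marker was at 27.7% and 41.6% of its epithelial level, against 4.54% and 11.2% at P7. The part of that change in the endothelial values was not tested.

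**Figure D2:**
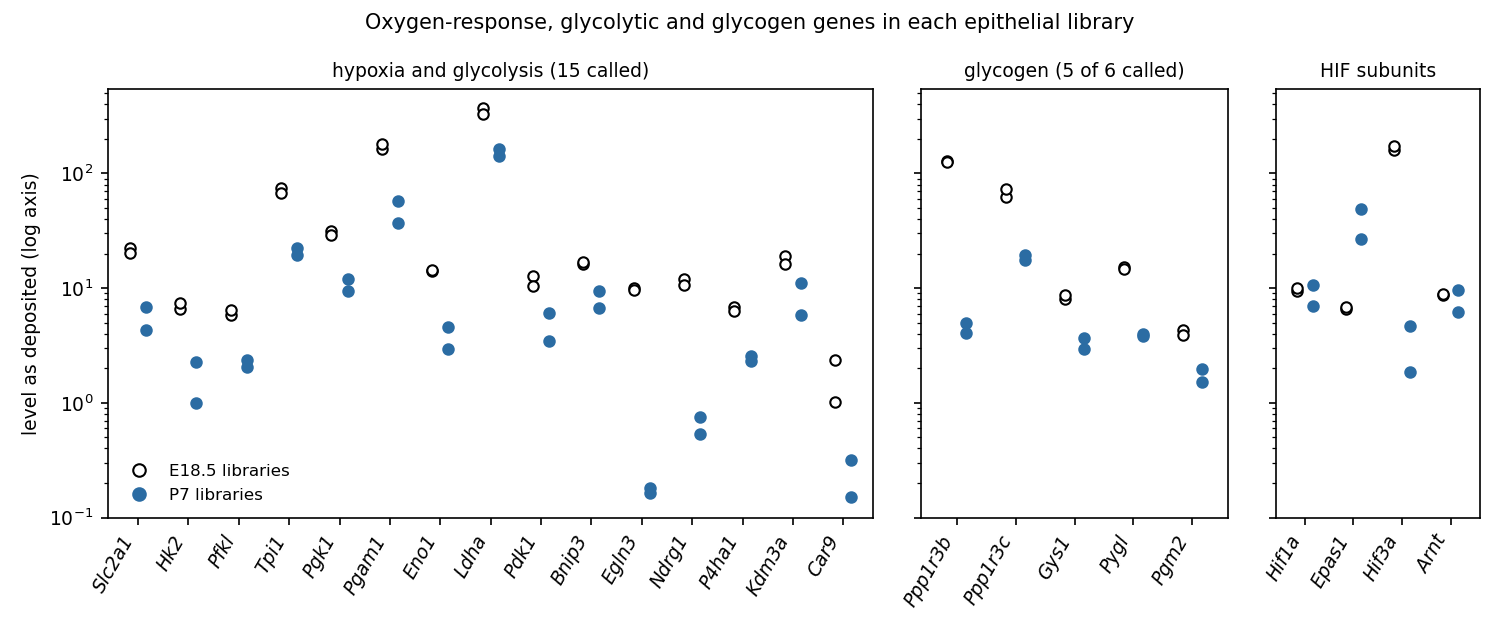
Level as deposited on a log axis in the 2 E18.5 libraries (open circles) and the 2 P7 libraries (filled circles) for the 15 called genes of the hypoxia and glycolysis list, 5 of the 6 called genes of glycogen metabolism and 4 HIF subunits. In the left and middle panels each P7 circle lies below both E18.5 circles, while in the right panel Hif1a and Arnt overlap, Epas1 is higher and Hif3a lower at P7.

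HIF dimers bind a short element whose core holds the letters ACGTG. The promoters of 5 called genes are shown because they carry these letters within the 150 bases before the start of transcription, from RefSeq sequence of build GRCm38.p6. Capitals mark ACGTG on either strand, which reads CACGT on the strand printed, and the overlapping pair CACGTG.
Slc2a1 (chr4:119108595-119108744, plus strand): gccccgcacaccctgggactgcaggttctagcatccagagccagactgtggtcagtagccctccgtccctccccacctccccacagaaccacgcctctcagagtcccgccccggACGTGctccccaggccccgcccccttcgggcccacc
Ldha (chr7:46845654-46845803, plus strand): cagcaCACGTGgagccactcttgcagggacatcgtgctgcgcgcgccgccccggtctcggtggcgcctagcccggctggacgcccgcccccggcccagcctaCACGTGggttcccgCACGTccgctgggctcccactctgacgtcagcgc
Pgk1 (chrX:106186950-106187099, plus strand): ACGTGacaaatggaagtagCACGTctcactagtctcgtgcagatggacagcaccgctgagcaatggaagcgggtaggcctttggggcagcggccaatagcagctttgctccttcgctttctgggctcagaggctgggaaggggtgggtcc
Pgam1 (chr19:41911721-41911870, plus strand): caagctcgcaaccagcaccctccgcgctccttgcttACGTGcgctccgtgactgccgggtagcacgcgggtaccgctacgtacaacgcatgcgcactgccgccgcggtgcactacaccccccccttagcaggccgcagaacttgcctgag
Bnip3 (chr7:138909507-138909656, minus strand): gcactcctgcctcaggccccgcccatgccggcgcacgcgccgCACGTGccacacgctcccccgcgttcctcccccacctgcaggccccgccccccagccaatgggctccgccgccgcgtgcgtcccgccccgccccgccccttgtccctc
The match began 36 bases before the start in Slc2a1, 114 in Pgam1 and 108 in Bnip3, where it is the pair CACGTG. In the Ldha promoter the pair occurred at 145 and at 48 bases, with a single match at 34. Over the full 250 bases of the promoter table, 9 of the 14 called members with an entry held ACGTG on either strand. So did 8 of the 14 members that were not called, Vegfa among them, and 18.5% of 27025 genes. The share of promoters with the letters was thus about the same among members that were called and members that were not, and a match of letters says nothing of binding.

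Glycogen, the fetal fuel store from which surfactant lipid is also made, is handled by another group of genes that fell. Of 20 tested genes of glycogen metabolism, a list drawn up after values had been seen, 6 fell and 0 (0) rose (median -0.48). Ppp1r3b, which targets protein phosphatase 1 to glycogen and so activates glycogen synthase, was at 129 and 125 at E18.5 and 4.04 and 4.95 at P7. That is 28.3-fold lower at P7 (log2 fold change -4.55 ± 0.44, adjusted p = 2.49e-05; rescaled -4.43). Its relative Ppp1r3c fell from 62.2 and 73.1 to 17.6 and 19.3 (log2 fold change -1.82 ± 0.34, adjusted p = 0.00566). The synthase Gys1 fell from 7.98 and 8.75 to 2.97 and 3.66 (adjusted p = 0.00485). On the side of breakdown, the phosphorylase Pygl fell from 15.3 and 14.7 to 3.80 and 3.996 (adjusted p = 0.0209). Pgm2, a phosphoglucomutase family member, went from 4.32 and 3.92 to 1.53 and 1.96 (adjusted p = 0.00477). These genes were lower at P7 in endothelium as well, and no list member was called for a difference between fractions. The epithelial minus the endothelial change was -0.42 for Ppp1r3b, -0.0027 for Ppp1r3c, -0.20 for Gys1, 0.23 for Pygl and -0.042 for Pgm2. The part of epithelial transcripts in the endothelial values was not tested. The epithelial falls thus covered synthesis and breakdown. Without single libraries the count of calls was between 2 (without E18.5 replicate 2) and 4, with Ppp1r3b called in each fit.

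Imprinted genes, which are expressed from 1 parental copy and many of which govern fetal growth, were also among the falls. In the imprinted and oncofetal list 7 of 18 fell and 0 (0) rose (median -0.55), against 2.5% of all genes that fell. Igf2, the fetal growth factor on chromosome 7:142650766-142666816, fell from 260.0 and 282 to 30.6 and 34.3 (log2 fold change -3.02 ± 0.42, adjusted p = 6.21e-04). Its neighbour H19, a non-coding RNA made from the other parental copy, fell from 881 and 1069 to 95.0 and 38.9 (log2 fold change -3.97 ± 0.97, adjusted p = 0.0292). Both were higher still at E16.5, where Igf2 stood at 1058 and 1205 and H19 at 4243 and 4669. H19 lost its call without any 1 of the 4 libraries, whereas Igf2 kept its call in each case. Grb10, an imprinted adaptor that restrains insulin receptor signalling, fell from 18.7 and 17.7 to 7.44 and 7.59 (adjusted p = 0.0113). The RNA-binding proteins Igf2bp1 and Igf2bp3, which are oncofetal but not imprinted, fell from 2.36 and 2.26 to 0.640 and 0.868 and from 1.99 and 1.78 to 0.701 and 1.15 (adjusted p = 9.31e-04 and 0.0388). Mest, at 44.4 and 62.9 at E18.5 and 38.9 and 28.3 at P7, was not called (adjusted p = 0.555).

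Every tested gene of the imprinted Dlk1-Dio3 region of chromosome 12 fell, 5 of 5, a list drawn up after values had been seen. Dlk1 and Meg3 are counted on the imprinted and oncofetal list as well. The calls of all 5 remained when any single library was left out. Dlk1 (GRCm38 chromosome 12:109452823-109463336), a membrane protein of the Notch ligand family made from the paternal copy, fell from 219 and 223 to 17.1 and 24.4 (log2 fold change -3.37 ± 0.46, adjusted p = 4.68e-04). Meg3 (12:109541001-109571726), a maternally expressed non-coding RNA, fell from 177 and 182 to 23.3 and 29.6 (log2 fold change -2.73 ± 0.27, adjusted p = 3.58e-05). Rtl1 (12:109589193-109600330), a protein-coding gene derived from a retrotransposon, fell from 57.0 and 66.1 to 2.41 and 4.74 (log2 fold change -3.82 ± 0.28, adjusted p = 1.69e-06). The maternal non-coding RNAs Rian (12:109603940-109661716) and Mirg (12:109729764-109749460) fell from 44.5 and 45.5 to 3.65 and 6.08 and from 3.18 and 4.39 to 0.113 and 0.0173 (adjusted p = 6.99e-06 and 1.08e-05). Genes of both parental origins thus fell. Maternal RNAs are transcribed antisense to Rtl1, and the labels do not state whether the counting used strand. Unlike Igf2 and H19, Dlk1, Meg3, Rtl1 and Rian all had higher means at E18.5 than at E16.5. Endothelial levels were 44.5 and 91.2 at E18.5 and 1.06 and 4.22 at P7 for Dlk1 and 66.0 and 60.9 and 2.61 and 5.08 for Meg3.

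**Figure D3:**
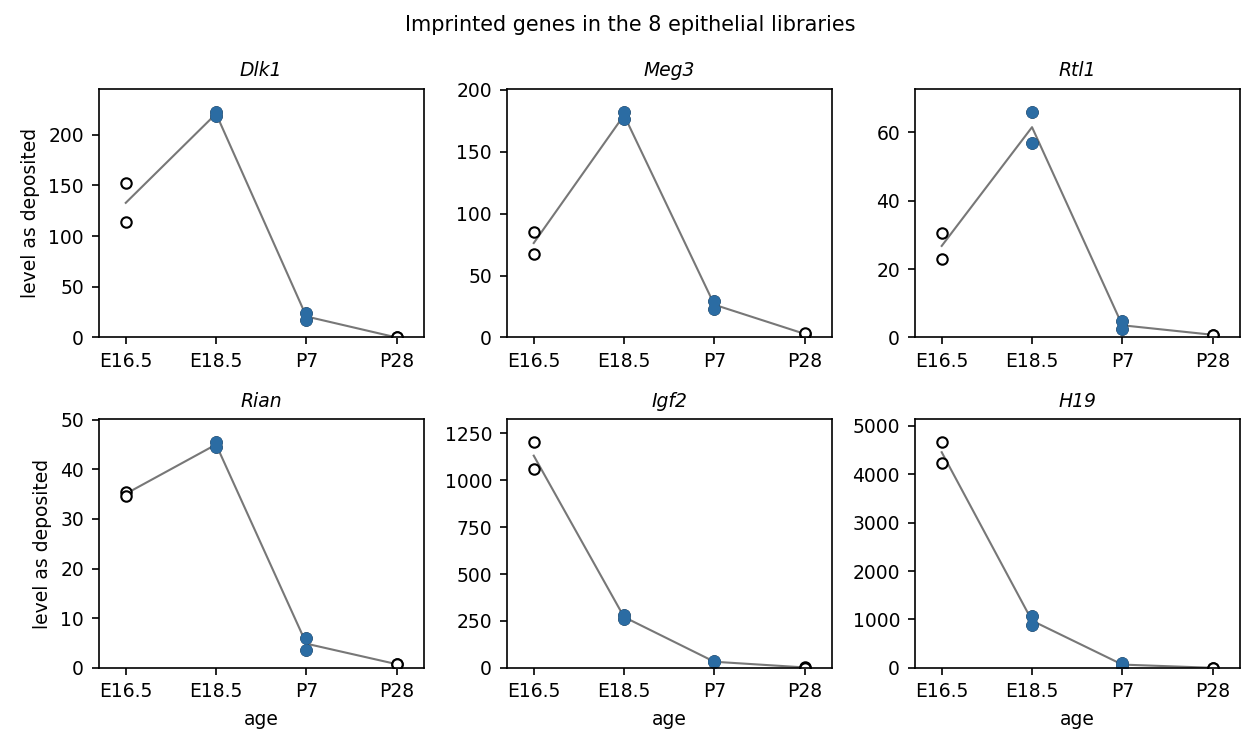
Level as deposited of 6 imprinted genes in the 8 epithelial libraries at 4 ages (2 circles per age, filled at E18.5 and P7; lines join the means; axes start at 0). Dlk1, Meg3, Rtl1 and Rian peak at E18.5 and lie near 0 by P28, whereas Igf2 and H19 are highest at E16.5. The description of 1 of the E16.5 libraries carries another age.

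Secretory genes of the airway gave the largest rise. Scgb1a1, the secretoglobin that defines club cells, stood at 158 and 170.0 at E18.5 and 8745 and 13729 at P7, 68.5-fold higher (log2 fold change 6.05 ± 0.83, adjusted p = 5.26e-04; rescaled 6.19). It made up 0.0692% and 0.0745% of the summed signal at E18.5 and 3.83% and 6.01% at P7. Of 22 tested club and secretory genes, 8 rose and 1 fell (median 1.70), against 2.24% of all genes that rose. Cyp2f2, the cytochrome P450 of club cells, rose from 62.97 and 64.8 to 289.5 and 432 (log2 fold change 2.45 ± 0.62, adjusted p = 0.0328). Aldh1a1, which oxidises retinaldehyde, rose from 6.31 and 5.17 to 40.9 and 61.2 (log2 fold change 2.93 ± 0.44, adjusted p = 0.00129). The near-identical Aldh1a7 could share reads with it. Bpifb1, a secreted airway defence protein, rose from 0.0421 and 0.195 to 5.72 and 7.26, and Gabrp, a GABA receptor subunit of airway epithelium, from 2.45 and 2.24 to 12.1 and 23.003 (adjusted p = 7.61e-04 and 4.00e-04). Cyp4b1 and Gsto1, enzymes of foreign compound metabolism, were also called higher. In each fit without 1 library, 5 of the 8 rises were called: Aldh1a1, Bpifb1, Cyp4b1, Gabrp and Scgb1a1.

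Other secretory genes were not called or were called lower. Scgb3a2 was at 250.1 and 291 at E18.5 and 852 and 454 at P7 (adjusted p = 0.474). Scgb3a1 went from 14.7 and 53.02 to 405 and 280.3, with fetal replicates far apart, and passed only after rescaling (adjusted p = 0.0584; rescaled 0.0471). Cldn10, a claudin of club cells, fell from 2.47 and 2.34 to 0.402 and 0.373 (log2 fold change -1.295 ± 0.14, adjusted p = 9.25e-05). Among ciliated cell genes 3 of 17 rose: Tppp3, a tubulin-binding protein, from 25.9 and 24.9 to 119 and 110.7, with Cdhr3 and Fam183b at low levels. Tppp3 was higher at P7 in endothelium too. Its epithelial minus its endothelial change was 0.037 ± 0.61, beside an epithelial change of 2.13 (adjusted p of the limma test of the difference = 0.994). Foxj1, the master regulator of motile cilia, was at 22.1 and 25.4 at E18.5 and 29.0 and 39.6 at P7 (adjusted p = 0.505). Krt15, a keratin of basal cells, fell from 24.2 and 30.1 to 9.41 and 4.18 (adjusted p = 0.00573), 1 of only 3 tested basal and neuroendocrine genes.

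Antigen presentation genes rose in both classes. MHC class II molecules present peptides to CD4+ T cells, and of 11 tested genes 4 rose and 0 (0) fell (median 1.44); all 4 were called whichever of the 4 libraries was left out. H2-Aa, the alpha chain of I-A, rose from 1.61 and 1.97 to 149 and 103, 70.2-fold (log2 fold change 5.48 ± 0.62, adjusted p = 1.06e-04). Its partner H2-Ab1 rose from 2.26 and 2.73 to 70.1 and 53.6 and H2-Eb1 from 0.345 and 0.295 to 8.75 and 5.80 (adjusted p = 4.00e-04 and 2.41e-04). Cd74, the invariant chain that guides class II molecules to the endosome, rose from 26.2 and 30.7 to 299 and 472 (log2 fold change 3.68 ± 0.58, adjusted p = 0.00176). Immune cells carry these genes at high levels, with means in the P7 immune libraries of 164 for H2-Aa and 291 for Cd74. The immune marker list moved with them in part: 3 of 18 rose, Lyz2, Csf1r (0.255 and 0.162 to 5.25 and 4.27) and S100a9 (0.101 and 0 to 2.17 and 2.51), and the markers other than Lyz2 summed to 16.2 and 13.5 at E18.5 and 28.9 and 37.8 at P7. The median immune marker stood at 0.327% and 0.257% of its immune level in the P7 libraries. At P28 the epithelial libraries read 206 and 209 for H2-Aa, with Ptprc at 0.0593 and 0.0174. The part of immune transcripts in the class II rise was not tested. No class II gene was called for a difference between the epithelial and endothelial changes. The epithelial minus the endothelial change was 1.87 ± 0.88 for H2-Aa and 0.45 ± 0.78 for H2-Ab1. For H2-Eb1 and Cd74 it was 1.76 ± 0.46 and 1.18 ± 0.82. Each was smaller than the epithelial rise, so these genes were also higher at P7 in endothelium. The source of the endothelial values was not tested.

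Class II promoters carry a block that ends in a Y box, whose core is ATTGG. The 150 bases before the start are shown for both called genes with a RefSeq entry in build GRCm38.p6, with ATTGG, or CCAAT on the strand printed, in capitals.
H2-Aa (chr17:34287824-34287973, minus strand): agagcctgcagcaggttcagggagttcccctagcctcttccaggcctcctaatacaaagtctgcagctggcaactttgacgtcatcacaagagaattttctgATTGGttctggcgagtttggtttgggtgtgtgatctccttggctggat
H2-Eb1 (chr17:34305717-34305866, plus strand): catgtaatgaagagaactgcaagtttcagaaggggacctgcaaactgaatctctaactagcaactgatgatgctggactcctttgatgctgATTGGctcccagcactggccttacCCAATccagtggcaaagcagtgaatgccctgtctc
The match began 48 bases before the start in H2-Aa and 59 and 35 bases before it in H2-Eb1. Within 250 bases, 2 of 2 called genes with an entry and 5 of 6 that were not called held ATTGG on either strand, against 37.5% of 27025 genes.

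Of 15 class I and peptide processing genes, 5 rose and 0 (0) fell (median 1.01). B2m, the light chain of every class I molecule, rose from 69.2 and 80.8 to 182 and 249, and the peptide transporter Tap1 from 1.35 and 1.72 to 4.69 and 3.58 (adjusted p = 0.0233 and 0.00650). H2-D1 rose from 74.97 and 82.0 to 179 and 211 (adjusted p = 0.0486) and H2-M3 from 1.32 and 1.35 to 4.81 and 4.36. H2-Q6 was also called, from a low level. The class I heavy chain genes are close copies of each other, so reads could be split among them. No single one of the 5 rises was called in all 4 fits without 1 library. H2-K1, at 99.6 and 92.4 at E18.5 and 163 and 198 at P7, was not called (adjusted p = 0.114). The class I change was not particular to epithelium. The epithelial minus the endothelial change had a median of -0.71 over the 15 genes, and no gene was called for it. It was -0.45 for B2m, -1.11 for Tap1, -0.51 for H2-D1, -0.65 for H2-M3 and -0.30 for H2-Q6. The endothelial rises were thus larger in value. Of 25 interferon response genes 4 rose and 0 (0) fell: Ifit3 from 0.513 and 0.293 to 5.32 and 7.56, Ifit2 from 1.16 and 1.41 to 4.12 and 6.05, and the GTPases Igtp and Gbp3. The calls of Ifit2 and Ifit3 held without any 1 library. Isg15 stood at 0 and 1.37 at E18.5 and 1.17 and 2.87 at P7 (adjusted p = 0.207).

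Alveolar type 1 genes rose in part. Of 22 tested, 5 rose and 0 (0) fell (7 after rescaling; median 0.42). Without E18.5 replicate 1, without E18.5 replicate 2 and without P7 replicate 2 a single member was called in each case, and without P7 replicate 1, 5 were; Igfbp2 was called in each fit. Spock2, a proteoglycan of the matrix, rose from 17.7 and 17.1 to 93.8 and 147 (log2 fold change 2.69 ± 0.52, adjusted p = 0.00734). Igfbp2, an IGF-binding protein of mature type 1 cells, rose from 0.966 and 1.03 to 14.9 and 7.63 (adjusted p = 4.00e-04). Col4a3 and Col4a4, the collagen IV chains of the basement membrane shared with capillaries, rose from 8.35 and 9.11 to 35.5 and 49.4 and from 1.64 and 1.77 to 4.77 and 6.13 (adjusted p = 0.0107 and 0.00986). Sema3e, a guidance ligand, rose from 2.21 and 2.04 to 5.41 and 6.24 (adjusted p = 0.0117). Spock2 and Col4a3 stood lower again at P28, at 12.4 and 18.6 and 9.37 and 11.5. Aqp5, the water channel of type 1 cells, went from 31.2 and 35.3 to 118 and 89.9 and passed only after rescaling (adjusted p = 0.0629; rescaled 0.0412). Ager, at 434 and 418 at E18.5 and 813 and 389.6 at P7, and Hopx, at 34.1 and 36.7 at E18.5 and 23.7 and 18.4 at P7, were not called (adjusted p = 0.865 and 0.328).

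Among alveolar type 2 genes 1 of 22 rose and 0 (0) fell, with a median of 0.00337. The called gene was Lyz2, a lysozyme of mature type 2 cells and of macrophages, which rose from 546 and 506.4 to 3291 and 2992 (log2 fold change 2.57 ± 0.53, adjusted p = 0.0102). Surfactant protein C, encoded by Sftpc, overlapped between the ages at 16845 and 13405 at E18.5 and 24016 and 13244 at P7 (log2 fold change 0.25 ± 0.97, adjusted p = 0.955). Sftpb, Sftpa1 and Sftpd were higher in both P7 libraries without passing the test: 463 and 432 at E18.5 and 801 and 1122 at P7 for Sftpb, 2059 and 1659.8 at E18.5 and 3341 and 6034 at P7 for Sftpa1 and 47.0 and 42.9 at E18.5 and 122 and 124 at P7 for Sftpd (adjusted p = 0.550, 0.485 and 0.130). Their log2 fold changes were 1.08 ± 0.84, 1.28 ± 0.88 and 1.43 ± 0.51.

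**Figure D4:**
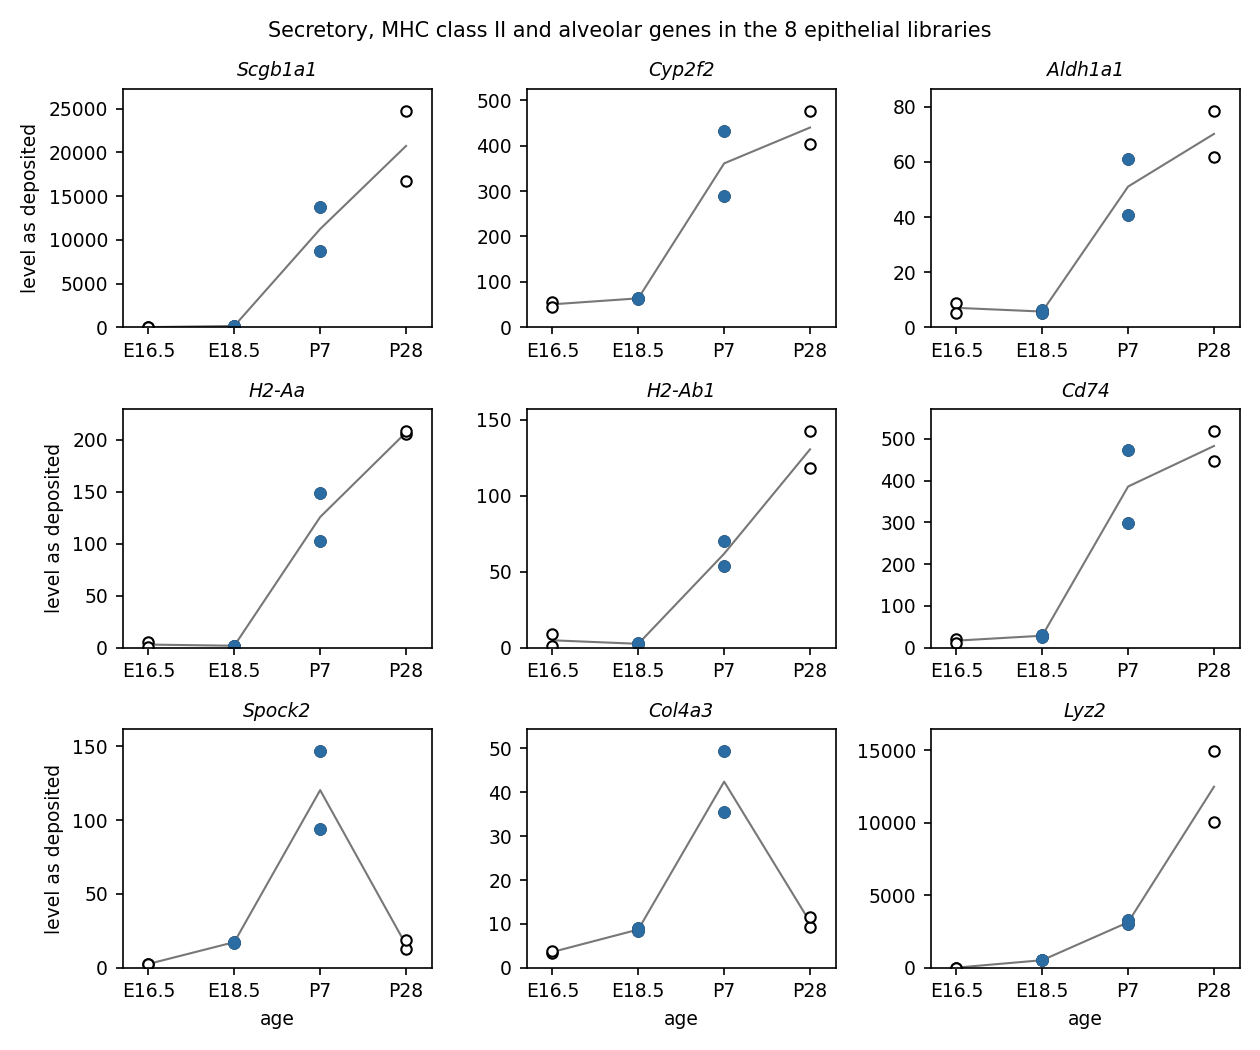
Level as deposited of 9 genes that rose from E18.5 to P7, in the 8 epithelial libraries at 4 ages (2 circles per age, filled at E18.5 and P7; lines join the means; axes start at 0). The secretory and MHC class II genes and Lyz2 have their highest mean at P28, while Spock2 and Col4a3 have it at P7.

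Lipid synthesis genes, which supply surfactant phospholipid, included 3 falls and 0 (1) rises among 26 tested. Scd2, a desaturase of fatty acids, fell from 950.0 and 853 to 243 and 346 (log2 fold change -1.63 ± 0.38, adjusted p = 0.0239). Srebf1, the transcription factor that drives fatty acid synthesis, fell from 17.98 and 16.9 to 7.31 and 9.82 (adjusted p = 0.0247; rescaled 0.0556, no longer called), and Acss2, an acetyl-CoA synthetase, fell from a low level. Fasn, at 262 and 236 at E18.5 and 86.2 and 160.2 at P7, was not called (adjusted p = 0.105). Genes of fatty acid oxidation and ketone formation included 3 rises and 0 (2) falls among 22. Cpt1a, which admits fatty acids to mitochondria, rose from 3.09 and 2.74 to 8.26 and 13.6, and Angptl4, a lipase inhibitor, from 0.466 and 0.239 to 3.55 and 5.55 (adjusted p = 0.0218 and 0.00832). No member of either list was called for a difference between epithelium and endothelium. The difference was 0.46 for Scd2, 0.056 for Srebf1, -0.18 for Acss2, -0.28 for Cpt1a and 0.11 for Angptl4. Endothelium thus changed in the same direction for these genes. Of 28 oxidative phosphorylation genes 0 (0) rose and 0 (4) fell, and 0 were called after rescaling (median -0.24; rescaled -0.12).

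Transport of salt and water, by which the lung clears its fluid, showed 1 rise and 1 fall among 21 genes. That is 4.76% each way, against 2.24% of all genes that rose and 2.5% that fell, so the list as a whole is not read as changed. Scnn1b, the beta subunit of the epithelial sodium channel ENaC, rose from 0.967 and 1.31 to 4.08 and 5.38 (log2 fold change 1.42 ± 0.22, adjusted p = 0.00170). Scnn1g, the gamma subunit, went from 16.03 and 18.47 to 47.2 and 73.3 and passed only after rescaling (adjusted p = 0.0629; rescaled 0.0326). Scnn1a, the alpha subunit, stood at 44.9 and 46.0 at E18.5 and 45.4 and 138 at P7, with P7 replicates far apart (adjusted p = 0.596). Nedd4l, the ubiquitin ligase that removes ENaC from the membrane, fell from 5.99 and 6.51 to 1.29 and 2.30 (log2 fold change -1.40 ± 0.18, adjusted p = 3.10e-04). In the tight junction list, Cldn8 and Cldn23 rose, from 1.71 and 1.63 to 8.26 and 8.71 and from 2.69 and 2.24 to 12.9 and 11.1 (adjusted p = 0.00176 and 6.21e-04). Tjp3, a scaffold of the junction, fell from 5.48 and 5.97 to 1.91 and 2.49 (adjusted p = 0.0255). Those 3 were the calls among 19 tested.

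Enzymes that handle foreign compounds, retinoids and oxidants rose in number. Of 26 xenobiotic and retinoid genes 10 rose and 0 (0) fell, 4 of them also on the club and secretory list (Cyp2f2, Cyp4b1 and Aldh1a1 among them). Without single libraries the count ran from 3 (without E18.5 replicate 1) to 10. Cyp2b10, a cytochrome P450 with close copies in the genome, rose from 0.215 and 0.265 to 3.17 and 8.11 (adjusted p = 2.93e-04). Fmo1, a flavin monooxygenase, rose from 0.555 and 0.829 to 3.97 and 3.07, and Ephx1, an epoxide hydrolase, from 0.768 and 0.994 to 2.31 and 2.98 (adjusted p = 0.00474 and 0.00394). Endothelial levels of Fmo1 were 2.92 and 2.33 at E18.5 and 33.1 and 31.6 at P7, and its change was called lower in epithelium than in endothelium (difference -1.79 ± 0.36, adjusted p = 0.0484). After rescaling that difference was no longer called (adjusted p = 0.0541). Aldh3a1, Adh7 and Gstm1 were also called, and Aldh1a1, Cyp2b10 and Cyp4b1 were called without any 1 library. Of 31 antioxidant genes 5 rose and 0 (1) fell: the glutathione transferases Gstm1 (25.9 and 25.3 at E18.5 and 77.6 and 137 at P7) and Gsta3 (0.510 and 0.268 at E18.5 and 2.57 and 3.79 at P7), the glutathione peroxidase Gpx2 (1.35 and 0.397 at E18.5 and 3.40 and 8.79 at P7), the peroxiredoxin Prdx6 (24.03 and 31.6 at E18.5 and 48.8 and 81.2 at P7) and Srxn1, which repairs peroxiredoxins (1.97 and 1.15 at E18.5 and 6.54 and 11.6 at P7). Their adjusted p ran from 1.36e-04 for Gsta3 to 0.0397 for Prdx6. The superoxide dismutases Sod1 and Sod2 and catalase, Cat, were not called (adjusted p of at least 0.746).

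Basement membrane genes went both ways. Besides Col4a3 and Col4a4, 4 of 24 fell. The laminin chains Lama5, Lamb1 and Lamc1, which together form laminin-511, fell from 66.6 and 62.2 to 21.2 and 29.3, from 12.7 and 11.2 to 4.32 and 4.95 and from 39.1 and 36.3 to 18.8 and 24.9 (adjusted p = 0.0114, 0.00662 and 0.0414). Frem2, which anchors epithelium to the membrane beneath it, fell from 8.67 and 8.39 to 2.03 and 2.39 (log2 fold change -1.57 ± 0.16, adjusted p = 4.82e-05). The number of falls called was 1, 2, 1 and 4 without E18.5 replicate 1, E18.5 replicate 2, P7 replicate 1 and P7 replicate 2. Fgf9, a growth factor of fetal lung epithelium, fell from 1.19 and 1.01 to 0.233 and 0.238 (adjusted p = 0.00734), the single call among 23 FGF and ERBB genes.

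Growth control genes gave a few calls against a cell cycle list that otherwise had no calls. Of 34 cell cycle genes the G1 cyclins Ccnd1 and Ccnd2 rose, from 23.6 and 23.04 to 69.1 and 73.2 and from 14.8 and 13.7 to 33.2 and 50.1 (adjusted p = 0.0171 and 0.00190), and 0 (0) fell. The rises were 5.88% of the list, against 2.24% of all genes. Mki67, a marker of dividing cells, was at 56.4 and 59.7 at E18.5 and 45.02 and 59.7 at P7 (adjusted p = 0.928). Cdkn1a, which encodes the inhibitor p21, rose from 8.49 and 8.72 to 20.8 and 34.6, and Gadd45g, a stress sensor, fell from 50.1 and 44.7 to 12.9 and 6.96 (adjusted p = 0.0273 and 0.0239). They were the only calls among 17 cell cycle arrest genes, 5.88% each way. In the Hippo and TGF-beta list 2 of 30 rose and 1 fell (6.67% and 3.33%), against 2.24% and 2.5% of all genes. Ctgf and Cyr61, secreted proteins and usual readouts of YAP and TAZ activity, rose from 57.2 and 37.3 to 159 and 168 and from 29.3 and 22.99 to 83.9 and 80.8 (adjusted p = 0.0160 and 0.0483). Dusp1, a phosphatase induced by glucocorticoids and by cell handling alike, rose from 55.2 and 54.7 to 194 and 265 (adjusted p = 0.0158), while Fos stood at 22.6 and 22.5 at E18.5 and 8.45 and 7.36 at P7 (adjusted p = 0.488).

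Some of the called rises were of genes that are far more abundant in endothelium. Of the 288 rises, 44 stood over 5 times higher in the P7 endothelial than in the P7 epithelial libraries and 9 in the P7 immune libraries, 52 in either. No called fall was over 5 times higher in the E18.5 endothelial libraries. Such counts were not made over all genes tested. Whether these shares differ from those of genes that were not called was therefore not tested. Tmem100, an endothelial target of BMP signalling, rose from 1.87 and 2.33 to 26.8 and 25.9 in epithelium (log2 fold change 3.14 ± 0.36, adjusted p = 1.33e-04) and stood at 17.5 and 17.2 and 219 and 273 in the endothelial libraries of both ages. Ly6a rose from 4.63 and 8.10 to 53.1 and 46.8, beside 72.5 and 67.1 and 349 and 392.4 in endothelium. Of the 14 endothelial markers Calcrl and Tek were called, Calcrl at 2.77 and 3.68 at E18.5 and 11.9 and 16.6 at P7, and the median change of the list was 1.097. Heyl, a Notch target, rose from 1.73 and 2.11 to 8.65 and 10.01 beside 17.5 and 28.1 in P7 endothelium. The matrix genes Postn and Eln, on the mesenchymal list, rose from 2.48 and 2.89 to 16.4 and 14.3 and from 4.73 and 8.20 to 25.4 and 28.2 (adjusted p = 0.0168 and 0.0299), beside 41.7 and 38.4 and 114 and 139 in P7 endothelium, while Col1a1 stood at 10.1 and 14.3 at E18.5 and 11.6 and 13.6 at P7 in epithelium. The part of endothelial transcripts in these rises was not tested. Csf1r and S100a9, from the immune list, rose from 0.255 and 0.162 to 5.25 and 4.27 and from 0.101 and 0 to 2.17 and 2.51 (adjusted p = 0.0207 and 0.0140), with Ptprc at 0.0335 and 0.0824 in the same libraries.

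Ligands that act on vessels and nerves showed 4 rises and 0 (0) falls among 22. Apln, a vascular peptide, rose from 1.70 and 2.66 to 12.9 and 8.72, beside 77.5 and 57.6 in P7 endothelium, and Pdgfb from 1.45 and 1.52 to 5.25 and 4.78, beside 16.8 and 10.5 (adjusted p = 0.00734 and 0.0456). Sema3b, a semaphorin, rose from 8.52 and 9.50 to 29.8 and 23.1 (adjusted p = 0.0207), beside 3.60 and 6.43 in P7 endothelium. It was thus higher in both epithelial than in both endothelial libraries at P7.

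Further genes were named by the size of their change alone. Cirbp, an RNA-binding protein induced by mild cold, rose from 2.28 and 2.76 to 28.5 and 26.5 (log2 fold change 3.02 ± 0.34, adjusted p = 1.11e-04) and read 3.73 and 9.51 at P28. In endothelium it stood at 3.40 and 4.65 at E18.5 and 19.7 and 25.04 at P7. Lrg1, a secreted glycoprotein, rose from 2.06 and 2.81 to 14.9 and 38.8, and the zinc transporter Slc39a2 from 0.198 and 0.815 to 13.8 and 10.4 (adjusted p = 0.0189 and 0.0162). Slc39a2 had a mean of 35.2 in the P7 immune libraries. Esm1, a proteoglycan of endothelial tip cells, rose from 0.920 and 0.529 to 5.85 and 16.6, and the cardiac actin Actc1 from 1.07 and 1.73 to 14.5 and 13.4, beside 14.2 and 31.7 and 24.3 and 24.4 in P7 endothelium. The non-coding RNA Snhg11 and the olfactory receptor gene Olfr1342 were the remaining large rises, from 7.01 and 6.23 to 30.9 and 67.3 and from 1.97 and 5.73 to 32.1 and 37.5.

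On the side of the falls, Fstl1, a secreted antagonist of BMP signalling, went from 96.2 and 86.0 to 20.7 and 15.1 (log2 fold change -2.30 ± 0.24, adjusted p = 5.55e-05). Igfbp6, a binding protein with a preference for IGF2, fell from 14.2 and 16.7 to 3.96 and 1.27 (adjusted p = 0.00756). Ncf1, a subunit of the phagocyte NADPH oxidase, fell from 25.1 and 31.8 to 2.34 and 5.65 (log2 fold change -2.64 ± 0.50, adjusted p = 0.00666), although its mean in the P7 immune libraries was 69.6. Pex26, a factor of peroxisome assembly, fell from 22.7 and 23.3 to 2.70 and 4.86, and Nt5dc2, of the nucleotidase family, from 71.0 and 72.1 to 6.28 and 4.57 (adjusted p = 2.55e-04 and 0.00954). Tmem213, a membrane protein, fell from 18.1 and 21.2 to 0.912 and 0.388 (adjusted p = 5.31e-06).

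Several lists held few or no calls, beside 2.24% of all genes that rose and 2.5% that fell. Of 18 distal progenitor genes 0 (0) rose and 0 (3) fell, and of 24 genes of secretory stress 0 (0) rose and 0 (6) fell. Neither list had a call after rescaling. Sox9, a transcription factor of the fetal lung tips, was lower in both P7 libraries without passing the test (42.2 and 41.4 at E18.5 and 15.4 and 18.6 at P7, adjusted p = 0.158). Of 20 epithelial identity genes 1 fell, Grhl2, from 3.43 and 3.15 to 1.74 and 1.97, and it was not called after rescaling (adjusted p = 0.0383; rescaled 0.0640). Of 25 Wnt pathway genes Porcn rose, of 23 Notch pathway genes Heyl and Hey2 rose and Dlk1 fell, and of 24 cholesterol genes Hsd17b7 rose. Among 16 circadian genes Nr1d2 and Dbp rose, from 1.43 and 1.22 to 3.55 and 6.38 and from 1.22 and 1.40 to 2.46 and 4.54, and Tef fell (adjusted p = 0.0115, 0.0426 and 0.0487). Tef was not called after rescaling. Among 22 alarmins and chemokines Cxcl17, a mucosal chemokine, rose from 0.242 and 0.0747 to 2.88 and 4.53 and Cxcl16 from 7.35 and 7.496 to 22.4 and 28.3 (adjusted p = 5.57e-05 and 0.0447).

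**Figure D5:**
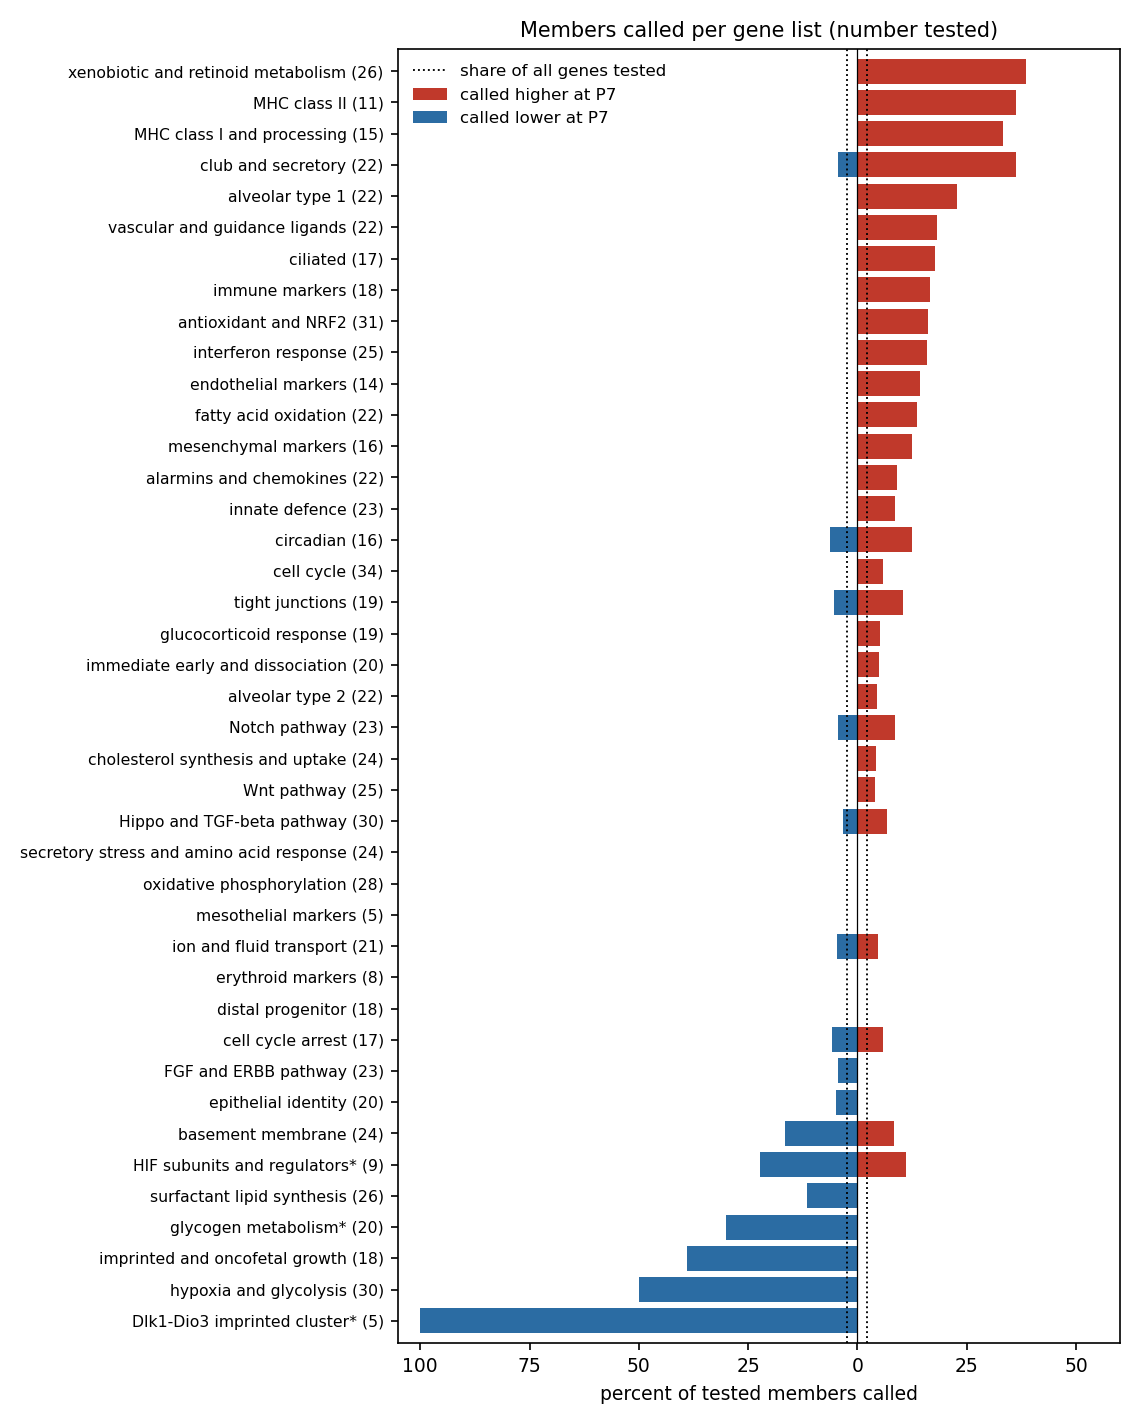
Percent of each list's tested members called higher at P7 (bars to the right) or lower (bars to the left), with the number tested in brackets and dotted lines at the shares of all 12880 genes (2.24% and 2.5%). Lists with an asterisk were drawn up after values had been seen, and the others were chosen with earlier results of these data known. The bars reach furthest left for the Dlk1-Dio3 cluster and the hypoxia and glycolysis list and furthest right for xenobiotic and retinoid metabolism.

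The change across birth was compared between epithelium and endothelium by the difference of both changes. The difference was called higher in epithelium for 24 genes (0.186%) and lower for 26 (0.202%), and after rescaling for 67 and 28. These 50 calls became 127 with a replicate block by pool, which takes account of the pools that both fractions share, and ran from 6 to 247 over the settings tried. Of the 288 epithelial rises 222 (77.1%) had an endothelial change above 0, as had 57.3% of all genes tested, and of the 322 falls 302 (93.8%) had one below 0, as had 42.1% of all genes. The epithelial identity markers in the endothelial libraries were also lower at P7, at 4.54% and 11.2% of their epithelial level (median marker) against 27.7% and 41.6% at E18.5, and their part in these shares was not tested. Chia1, an acidic chitinase, rose from 1.84 and 1.64 to 11.04 and 12.5 in epithelium against 0.593 and 0.946 and 0.163 and 0.502 in endothelium (difference 2.63 ± 0.34, adjusted p = 0.00231). Aldh1a1, Gabrp and Cldn23 differed in the same direction (adjusted p = 0.0484, 0.0320 and 0.0149), as did Bpifb1, Cldn8, Cxcl17, Cyp2b10, Gsta3 and Scnn1b (adjusted p from 0.00877 for Cxcl17 to 0.0495 for Bpifb1). Fstl1 fell in epithelium and stood at 61.8 and 70.5 and 86.9 and 70.2 in endothelium (difference -2.54 ± 0.34, adjusted p = 0.00312). For Rprm, a cell cycle inhibitor, the endothelial level went from 3.81 and 8.16 to 0.174 and 0.805 beside 7.67 and 11.8 at E18.5 and 20.3 and 11.8 at P7 in epithelium (difference 2.84 ± 0.53, adjusted p = 0.0249).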

How the data were processed

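Signal per gene was taken from the matrix that the authors deposited, with 1 column for each of 22 libraries. Alignment used TopHat2 2.0.9 and mouse build GRCm38 (mm10), per the submitters' processing notes, and per the labels libraries were paired-end Nextera XT libraries of total RNA. The quantifier, annotation, strand setting and unit before scaling are not given in the sources used here. Every deposited signal column sums to 228405, so read depth is unknown and no interval or floor was computed. A gene with a large share lowers all others in its library. Of 24371 rows, 27 with names turned into dates were left out.

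Values were tested as log2(value + 1) with limma 3.58.1 (trend) in R 4.3.3. One model with a mean for each of 11 groups covered the 12880 genes that reached 1 in 2 or more libraries (11 residual and 3.89 prior degrees of freedom). Benjamini-Hochberg adjustment ran over all genes of a comparison, and the threshold was 0.05. P-values rest on the spread between libraries of the same group, pooled over all 11 groups. For epithelial genes that spread includes their variation in the endothelial and immune libraries. Libraries of a group came from different pools of animals, and the P7 epithelial libraries also carry different run names. The test was also run on simulated data with independent noise and changes only in genes above a level of 10. That run cannot check pools shared between fractions or genes with low values. The second comparison was the epithelial change minus the endothelial change. Genes named were the markers, the 15 largest rises and falls called in both scalings (higher mean at least 10, groups not overlapping, no marker lists, predicted or ribosomal protein genes), the first 4 tested members and up to 8 called members of described lists, and the largest differences between fractions. Few members of lists with few calls were named, and some called members are not reported here. The groups, lists and rules were chosen with earlier results of these data known. Alternatives were other scaling, pseudocount 0.1, other filters, fewer libraries, a fold limit, leaving out libraries, and replicate blocks. Promoters were read from a RefSeq table and positions from the GENCODE annotation of GRCm38.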

Additional observations from a re-analysis of the deposited data

Results flagged for a closer look

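The epithelial change across birth differed from the endothelial change by the limma test of the difference for 14 genes named above. The difference was 3.10 ± 0.63 for Aldh1a1, 2.84 ± 0.53 for Rprm, 2.73 ± 0.56 for Bpifb1, 2.63 ± 0.34 for Chia1, 2.34 ± 0.41 for Cldn8, 2.34 ± 0.45 for Gabrp, 2.23 ± 0.38 for Cldn23, 2.16 ± 0.41 for Cyp2b10, 1.92 ± 0.30 for Cxcl17, 1.67 ± 0.32 for Scnn1b and 1.46 ± 0.26 for Gsta3, all higher in epithelium on the log2 scale. It was -1.79 ± 0.36 for Fmo1, -1.996 ± 0.24 for Ndrg1 and -2.54 ± 0.34 for Fstl1, all lower in epithelium. Adjusted p ran from 0.00135 for Ndrg1 to 0.0495 for Bpifb1. After rescaling the difference for Fmo1 was no longer called (adjusted p = 0.0541). In endothelium the changes were -0.17 for Aldh1a1, -2.19 for Rprm, 0.00714 for Bpifb1, -0.41 for Chia1, -0.51 for Cldn8, 0.0699 for Gabrp, -0.32 for Cldn23, 0.15 for Cyp2b10, 0.0798 for Cxcl17, -0.25 for Scnn1b, 0.12 for Gsta3, 3.21 for Fmo1, -0.91 for Ndrg1 and 0.24 for Fstl1. In the endothelial libraries the median epithelial identity marker was at 27.7% and 41.6% of its epithelial level at E18.5 and at 4.54% and 11.2% at P7, and the part of epithelial transcripts in these differences was not tested. Groups of 2 libraries were not tested for a sample far from the others.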

How the results depend on the processing

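The 610 epithelial calls became 385 with a filter of at least 5, 381 with a fold limit of log2 1, and 125 with the 4 libraries compared alone in the fit, of which 105 were shared with the 610. Leaving out 1 library gave 197 to 396 calls. Every other setting run, rescaling included, stayed within 1.5 times of 610 (487 to 868). Of the 130 called genes named, 0 changed direction in any setting run, but 85 lost their call with the 4 libraries alone, 35 with 8 libraries, 32 with a pseudocount of 0.1, 19 with the fold limit, 17 without the 2 libraries whose descriptions carry another age and 12 with no filter. Leaving out 1 library cost 49 to 75 of these calls, and no more than 5 were lost in any other setting, apart from 20 that a filter of at least 5 left untested and 4 left untested by a filter on the 4 libraries. The 50 calls of the difference between fractions depended more on the settings: 95 after rescaling, 6 with a pseudocount of 0.1, 247 with no filter, 16 with a filter of at least 5, 16 with 8 libraries in the fit, 29 without the 2 libraries whose descriptions carry another age, and 127 with a replicate block by pool. Leaving out 1 library gave 18 to 82. A replicate block by number gave 638 epithelial calls and 51 differences, and one by pool 621 epithelial calls. The numbers do not pair libraries across ages: each pool holds 1 age, no label ties same-numbered pools, and same-numbered libraries did not deviate together (r = -0.0243 across genes). Among named genes that were not called, the log2 fold change changed sign when 1 library was left out, with ranges of -0.13 to 0.93 for Ager, -0.43 to 0.13 for Arnt, -0.22 to 0.21 for Cat, -0.17 to 0.29 for Col1a1, -0.43 to 0.13 for Hif1a, -0.36 to 0.0396 for Mki67, -7.64e-05 to 1.58 for Scnn1a, -0.18 to 0.68 for Sftpc and -0.0917 to 0.14 for Sod1, and after rescaling it was 0.13 for Cat. The cause was not tested. With read depth unknown, low values carry an error that could not be computed.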
